A study of Bos taurus with 60 samples.

Results

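The interleukin receptors described here are IL27RA, IL6R, IL10RB and IL1R1, 4 genes of the 25223 loci counted in the mammary gland of dairy cows across the dry period. They were chosen because the study named them among inflammatory factors that were upregulated, and all 4 are receptor chains. Each symbol was paired with its locus through the gene tables of the study, as XLOC_021956 (ENSBTAG00000016933) for IL27RA, XLOC_017610 (ENSBTAG00000018474) for IL6R, XLOC_000546 (ENSBTAG00000019404) for IL10RB and XLOC_002183 (ENSBTAG00000005273) for IL1R1. All 4 were among the 14714 loci that passed the filter on low counts, which asked for 1 CPM or more in 6 or more samples, CPM being counts scaled to library size. Since the study picked the receptors for a rise at D3 in these same samples, the D3 vs. D-3 values below are not independent evidence of that rise. Every comparison of a later day with D3 uses the same D3 samples, so that choosing receptors high at D3 also favours a fall after it. Comparisons of later days with D-3 use the same D-3 samples. Choosing receptors low at D-3 relative to D3 thus also favours higher values at later days than at D-3.

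The samples were mammary biopsies of 12 multiparous Holstein cows. Every cow gave a biopsy in late lactation, at D-3, and then at D3, D7, D14 and D25, counted from the day milking ended (dry-off, D0). From dry-off on, 6 cows were heat-stressed (HT) in a pen with shade only and 6 cows were cooled (CL) in another pen with shade, fans and soakers, so that neither treatment had begun when the D-3 biopsies were taken. The gland of the udder that was biopsied changed between days, the tissue was not sorted into cell types, and the pen goes with the treatment, so that pen and treatment cannot be told apart. The cow is the biological replicate.

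Interleukin receptors are the cell surface proteins through which cells read the messenger proteins of inflammation and immunity. Receptors of the class I and class II cytokine families, to which IL27RA, IL6R and IL10RB belong, signal through Janus kinases and STAT transcription factors, whereas IL1R1 signals through the adaptor MYD88 to nuclear factor kappa B. In the mammary gland, STAT3 is best known for its part in the death of milk-secreting cells once milk removal stops, and the gland also takes in leukocytes at that stage.

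Total counts were 20525083 to 26183990 per library, with a median of 22637562. The receptors had ample counts, with 333 to 4510 reads per library for IL27RA, 248 to 2541 for IL6R, 117 to 1034 for IL10RB and 1217 to 6965 for IL1R1. Levels below are CPM scaled by TMM factors, which set the bulk of loci equal between libraries. CPM is not divided by gene length, so levels are compared between samples of a gene and not between genes. In whole tissue, fewer cells of a type and less RNA per cell cannot be told apart.

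A few samples stood apart. The deviations of the loci from their group mean correlated at 0.293 on average between days of the same cow and at -0.0573 between cows of a treatment. For cow 8513 the D14 and D25 samples correlated at -0.102 with its own earlier samples and at 0.51 with those of cow 8660, and the late samples of cow 8660 at 0.12 with its own and at 0.367 with those of cow 8513. Both cows were HT. In the other 10 cows the mean of late with early samples of the same cow was 0.126 to 0.533. The D14 sample of cow 7965 (CL) was nearly without KRT5 and KRT19, keratins of mammary epithelium, at 6.58 and 3.36 CPM. The other 11 samples of that day had at least 119 and 231 CPM. It held the most DCN, a fibroblast gene, at 5396 CPM. It also held the most ACTA2, a basal or myoepithelial marker like KRT5, and the most KDR, an endothelial gene. These were at 1481 and 354 CPM, against at most 780 and 160 CPM in the other 11. The basal marker MYLK (408 CPM), ADIPOQ (9.93 CPM) and AIF1 (43.8 CPM) were within the range of the others. Where leaving these samples out changed a call of a receptor or took an exact p across 0.05, the value or count without them is given here or with the processing alternatives.

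All 4 receptors were higher at D3 than at D-3, by 1.73-fold for IL27RA, 1.54-fold for IL6R, 1.49-fold for IL10RB and 1.48-fold for IL1R1. All 4 passed the threshold, a Benjamini-Hochberg FDR of at most 0.05 over the 14714 loci in edgeR's quasi-likelihood F-test, against 6.03% of all tested loci that were called higher at D3. The median log2 fold change of the receptors was 0.60, beside -0.01 over all tested loci. Leaving out any of 8 single cows left 3 of 4 called, IL1R1 being the receptor lost. In 9 of the 12 cows every receptor was higher at D3. In cow 8513 (HT) every receptor was lower, and cows 8668 (HT) and 8686 (CL) were mixed. Without cows 8513 and 8660, and without the D-3 sample of cow 8513, 4 of 4 were again called.

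**Figure D1:**
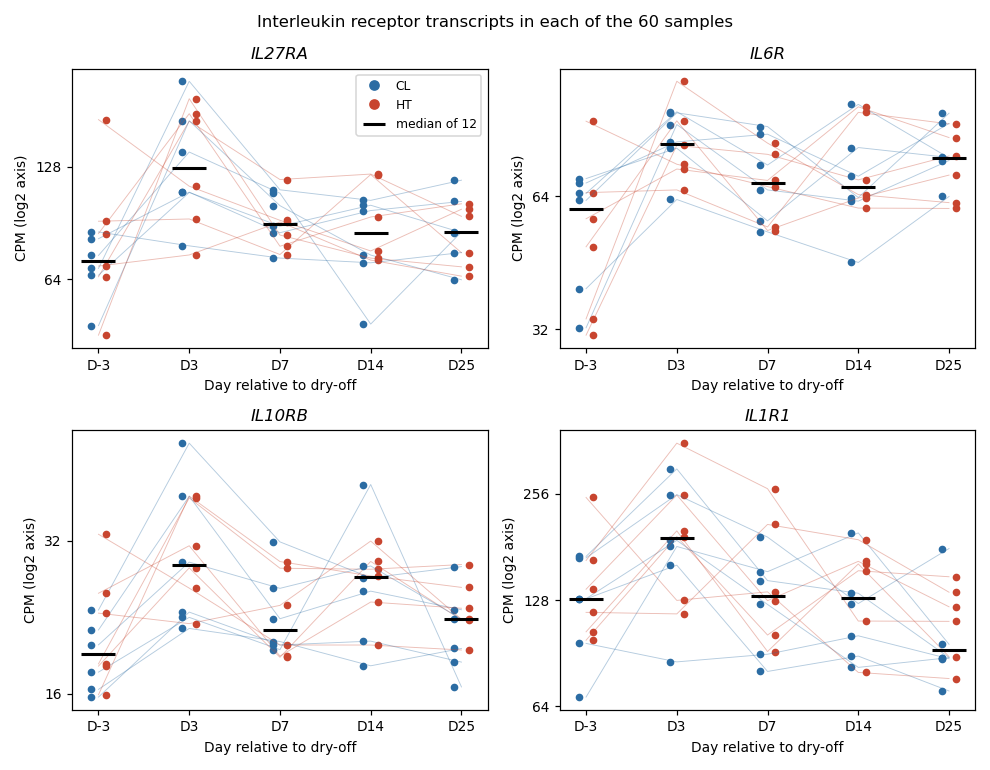
Each panel shows a receptor in CPM on a log2 axis, at the 5 days on the horizontal axis. Points are the 60 samples (CL blue, HT red), thin lines join the samples of a cow and black bars are the median of 12 cows. Medians are highest at D3 in every panel, and HT and CL points overlap at every day.

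IL27RA binds interleukin 27, a heterodimer of the IL27 and EBI3 chains, together with the shared signal transducer gp130 (IL6ST). Its level at D-3 was 45.3 to 171 CPM with a median of 71.8 CPM, and at D3 it was 74.3 to 217 CPM with a median of 127 CPM. At D3, 3 cows were above every D-3 sample and none was below, while the remaining samples of the days overlapped. On the log2 scale this was a change of 0.79 with an SE of 0.16 and an FDR of 0.000551. Within cows, 10 of 12 were higher at D3, with a mean log2 difference of 0.79 ± 0.85 (SD, n = 12) and p = 0.0103 in an exact two-sided sign-flip test. Of all tested loci, 9.01% were higher in at least 10 cows.

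At D7, IL27RA was back to 72.9 to 118 CPM with a median of 89.9 CPM, and the samples were closer together than at any other day (SD of log2 CPM 0.227, against 0.520 at D3). The log2 change from D3 was -0.58 (SE 0.16), at an FDR of 0.0376, and 11 of 12 cows were lower, with an exact sign-flip p of 0.00146. IL27RA alone of the 4 receptors was called at D7 vs. D3, against 2.3% of all tested loci called lower. The call did not hold without cows 8513 and 8660 (FDR = 0.0606), nor with any 1 of cows 8060, 8314, 8541, 8564, 8603, 8647, 8660 and 8713 left out (FDR up to 0.113), nor with counts scaled by library size only (FDR = 0.718). At D14 the range was 48.5 to 122 CPM with a median of 85.1 CPM, the lowest value being the D14 sample of cow 7965. At D25 it was 63.8 to 118 CPM with a median of 85.5 CPM. In order of mean log2 CPM, IL27RA ran from D3 through D7, D14 and D25 to D-3. Levels at D3 and D7 overlapped, but the within-cow differences had an exact sign-flip p of 0.00146. For the neighbours D7 and D14, D14 and D25, and D25 and D-3 it was 0.51, 0.942 and 0.184. The D25 vs. D-3 difference was 0.18 within cows, and 0.27 without the D-3 sample of cow 8513 (exact p = 0.0273). All 12 cows were lower at D25 than at D3, by a mean log2 difference of -0.61 ± 0.49 (SD, n = 12), a comparison with the day for which the receptors were chosen.

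IL6R binds interleukin 6 and then recruits gp130. It can also be shed from the cell by the protease ADAM17 and act in soluble form. Its level was 31.0 to 94.8 CPM with a median of 59.8 CPM at D-3, and 63.0 to 117 CPM with a median of 84.3 CPM at D3. The samples of D3 lay close together, and 4 of them were above every D-3 sample. This log2 change of 0.62 (SE 0.14) had an FDR of 0.00145. In 11 of 12 cows IL6R was higher, with an exact sign-flip p of 0.00293. Of all tested loci, 2.62% were higher in at least 11 cows.

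After D3, IL6R was the only receptor called against D-3 at both D14 and D25. It was 53.2 to 92.2 CPM at D7, 45.3 to 103 CPM at D14 and 60.1 to 98.8 CPM at D25, with medians of 68.5, 67.2 and 78.3 CPM. Relative to D-3 it had changed on the log2 scale by 0.33 at D7, by 0.41 at D14 and by 0.49 at D25, each with an SE of 0.14. The FDR was 0.129, 0.0338 and 0.0138 at these days. IL6R was called with IL10RB at D14 vs. D-3, against 8.23% of all tested loci called higher. At D25 vs. D-3 it was called without another receptor, against 3.96%. Both comparisons use the D-3 samples by which the receptors were chosen, so that the choice favours these calls. In both comparisons 11 of 12 cows were higher, and cow 8513 was the exception. The exact sign-flip p was 0.0146 and 0.00488. Both calls were lost when only the 24 samples of the compared days entered the fit (FDR = 0.126 and 0.0593). The D25 call was also lost without cow 8541 (FDR = 0.0656) or 8647 (FDR = 0.0642), and the D14 call without any 1 of cows 8314, 8541, 8603, 8647, 8668 and 8713 (FDR up to 0.0988). The D7 vs. D-3 difference was called without the D-3 sample of cow 8513 (0.42 on the log2 scale, FDR = 0.0316). From D3 to D7, IL6R was lower in 11 of 12 cows, by a mean log2 difference of -0.30 ± 0.25 (SD, n = 12) with an exact sign-flip p of 0.000977, but the edgeR FDR was 0.265, and with counts scaled by library size only 9 of 12 cows were lower (-0.23, exact p = 0.064). In the order D3, D25, D14, D7 and D-3, no within-cow difference of neighbours had an exact sign-flip p under 0.05. The smallest was 0.0532 for D7 against D-3, which became 0.0195 without the D-3 sample of cow 8513.

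IL10RB is the accessory chain shared by the receptors of interleukin 10, interleukin 22 and the lambda interferons. It was 15.8 to 32.9 CPM with a median of 19.1 CPM at D-3, and 21.5 to 49.8 CPM with a median of 28.7 CPM at D3. Again 4 cows at D3 were above every D-3 sample. The FDR was 0.00158 for a log2 change of 0.58 (SE 0.13), and 10 of 12 cows were higher with an exact sign-flip p of 0.00391. IL10RB then went down in 11 of 12 cows, to 18.9 to 31.8 CPM at D7 with a median of 21.4 CPM, and 6 cows at D7 were below every D3 sample. The exact sign-flip p was 0.00146, while the edgeR log2 fold change of -0.41 (SE 0.13) had an FDR of 0.0682. With the cow as a block, which uses the pairing of samples by cow, the FDR was 0.0318, so that 2 of 4 receptors were called at D7 vs. D3 in place of 1.

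At D14, IL10RB was 18.2 to 41.3 CPM with a median of 27.2 CPM, which was above D-3 by 0.37 on the log2 scale (SE 0.13) at an FDR of 0.0368. The D14 sample of cow 7965 was the highest of that day, and without it the difference was 0.30 (FDR = 0.101). The call was also lost without any 1 of cows 7965, 8314, 8541, 8603, 8647, 8668 and 8713 (FDR up to 0.149). At D25 it was 16.5 to 28.7 CPM with a median of 22.4 CPM. The exact sign-flip p for D25 vs. D14 was 0.0278 with 9 of 12 cows lower, and the largest decrease, -1.32 on the log2 scale, was again that of cow 7965. The mean difference was -0.23 with this cow and -0.13 without it (exact p = 0.0557, 8 of 11 cows lower). In the order D3, D14, D7, D25 and D-3, no within-cow difference of neighbours had an exact sign-flip p under 0.05. The smallest was 0.0918 for D14 against D7, which became 0.0332 with counts scaled by library size only. In the bovine annotation used for gene names (assembly ARS-UCD2.0), IL10RB lies on chromosome 1 between the interferon receptor genes IFNAR1 and IFNAR2, with IFNGR2 beyond IFNAR1. The library kit does not mark the strand, and how strand was treated in counting was not stated. A share of reads from a neighbour could thus not be tested.

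IL1R1 is the signalling receptor of interleukin 1 alpha and beta, and acts with the accessory protein IL1RAP. Its level was 68.0 to 250 CPM with a median of 129 CPM at D-3, and 85.6 to 356 CPM with a median of 191 CPM at D3, where 4 cows exceeded every D-3 sample. The FDR of this change, 0.57 on the log2 scale with an SE of 0.20, was 0.0455, the largest of the 4. In 9 of 12 cows IL1R1 was higher at D3, with an exact sign-flip p of 0.0234. The call was lost without any 1 of cows 7965, 8314, 8541, 8564, 8603, 8647, 8660 and 8713 (FDR up to 0.114), with only the 24 samples of D-3 and D3 in the fit (FDR = 0.102), and without the filter on low counts (FDR = 0.0556). Without cows 8513 and 8660 the change was 0.73 (FDR = 0.0163).

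After D3 the median level of IL1R1 went down to D25. It was 80.4 to 264 CPM at D7, 79.9 to 198 CPM at D14 and 70.8 to 179 CPM at D25, with medians of 131, 129 and 92.3 CPM. At D7 it was lower than at D3 in 9 of 12 cows (exact sign-flip p = 0.02), at an edgeR FDR of 0.174. D25 was its lowest day, below D3 in 10 of 12 cows by a mean log2 difference of -0.86 ± 0.61 (SD, n = 12) with an exact sign-flip p of 0.00195. D25 was also below D14, its neighbour in the order D3, D7, D-3, D14 and D25, in 10 of 12 cows (-0.29, exact p = 0.042), which did not hold with counts scaled by library size only (-0.24, exact p = 0.0874) or without cows 8513 and 8660 (-0.34, exact p = 0.0527). Against D-3, D25 did not pass (-0.34 on the log2 scale, SE 0.20, FDR = 0.268), and the exact sign-flip p of 0.118 became 0.0327 when the late samples of cows 8513 and 8660 were exchanged. This direction turned with counts scaled by library size only, at 0.26, a scaling under which the median of all loci was itself 0.48 higher at D25. Relative to that median IL1R1 was lower, by -0.23.

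**Figure D2:**
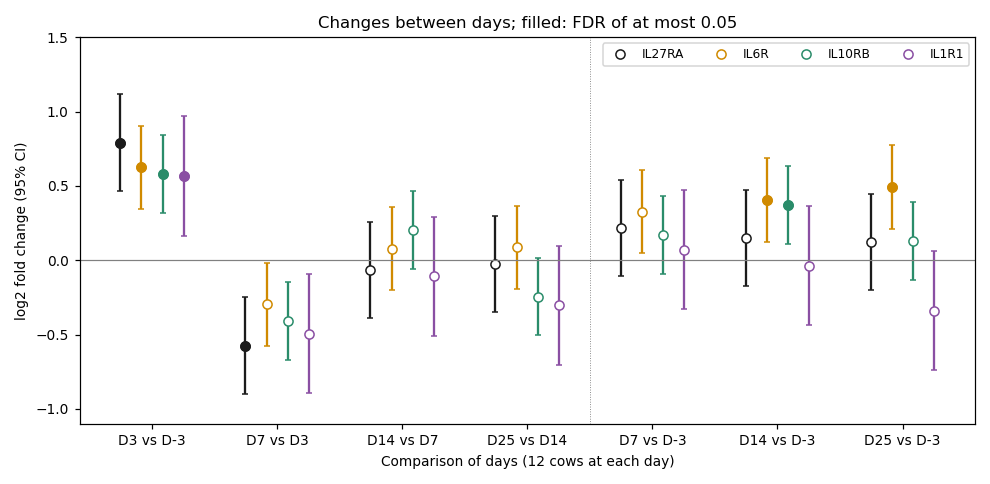
The log2 fold change of each receptor (vertical axis, with its 95% confidence interval) is drawn for 7 comparisons of days from the fit of all 60 samples, and filled points have an FDR of at most 0.05. All 4 points are filled at D3 vs. D-3, IL27RA is the filled point at D7 vs. D3, and none is filled at D14 vs. D7 or D25 vs. D14.

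No receptor was called at D14 vs. D7 or D25 vs. D14, where 0% and 0.0612% of all tested loci were called, nor at D7 vs. D-3, where 8.46% were. Between D7 and D14 the log2 fold changes lay between -0.11 for IL1R1 and 0.20 for IL10RB, and the unadjusted p was above 0.05 for all 4. In a test of any difference over the 5 days, 4 of 4 receptors were called, against 21% of all tested loci. The FDR was 0.000917 for IL27RA, 0.00451 for IL10RB, 0.00798 for IL1R1 and 0.00931 for IL6R. The test includes the D3 vs. D-3 change for which the receptors were chosen, so that it is not separate evidence. Leaving out cow 8647 left 2 of 4 called in that test, and leaving out cow 8713 or scaling by library size only left 3. The day with the highest level was D3 in 8 of 12 cows for IL27RA, IL10RB and IL1R1, and in 5 of 12 cows for IL6R, in which 4 cows peaked at D14. The choice of the receptors also favours a peak at D3.

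The D-3 libraries differed in how far milk protein transcripts filled them, and the change of the receptors was listed beside that share. The caseins CSN1S1 and CSN2 and the whey protein LALBA together made up 40.2% to 49.8% of D-3 counts in 5 cows (7965, 8541, 8564, 8647 and 8713) and 0.19% to 8.03% in the other 7. In the former, the TMM factors were 0.30 to 0.419, against 1.02 to 1.21. All 4 receptors were higher at D3 in each of these 5 cows. The log2 difference of IL27RA from D-3 to D3 was between 0.92 and 2.10 in these 5 cows and between -0.59 and 1.07 in the other 7, where 5 of 7 were higher. For IL6R the ranges were 0.66 to 1.79 and -0.32 to 0.95, for IL10RB 0.36 to 1.29 and -0.35 to 0.64, and for IL1R1 0.55 to 1.10 and -0.97 to 1.41. Of these other 7 cows, 6 were higher for IL6R, 5 for IL10RB and 4 for IL1R1. The ranges overlapped for every receptor. Cow 8713, with the largest milk protein share, had the largest rise of IL27RA, IL6R and IL10RB, from 45.3 to 195 CPM for IL27RA. The largest rise of IL1R1, 1.41 on the log2 scale, was in cow 8603, with a share of 0.57%. Since the cows fall into separate sets by this share, no correlation was computed, and the part of milk protein reads in the change was not tested. Under scaling by library size only, all 4 receptors were again called higher at D3, with log2 fold changes of 0.83 to 0.99 beside a median of 0.35 over all loci. That scaling turned the balance of calls over all tested loci, with 15.1% called higher and 1.19% lower at D3 in place of 6.03% and 9.04%.

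**Figure D3:**
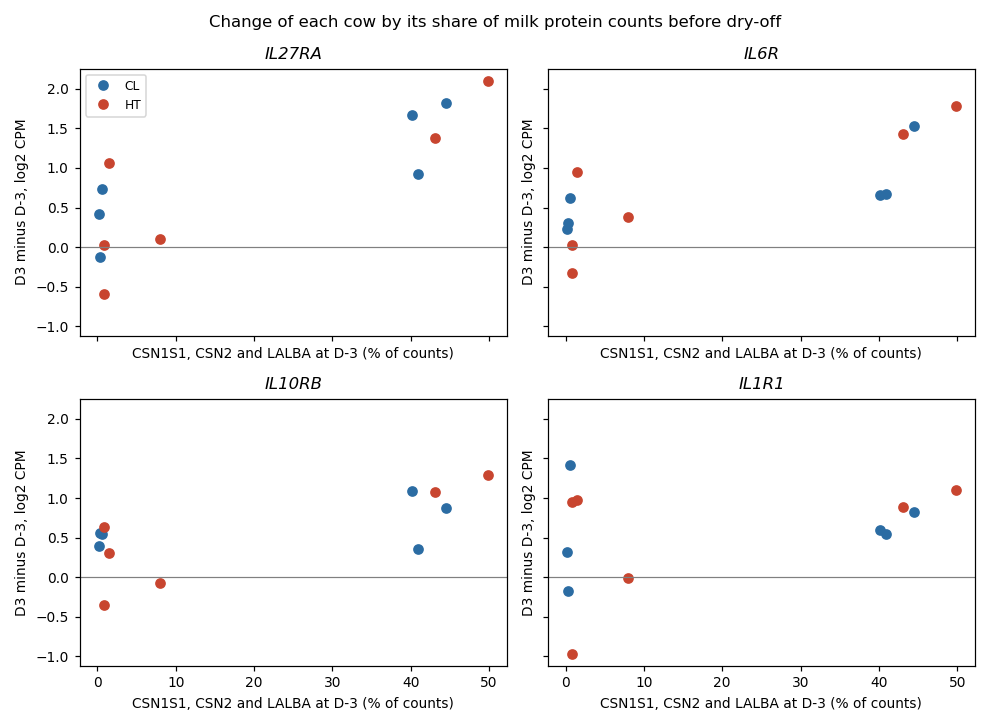
For each of 12 cows the difference between D3 and D-3 in log2 CPM (vertical axis) is drawn against the percentage of D-3 counts on CSN1S1, CSN2 and LALBA (horizontal axis), with CL in blue and HT in red. The 5 cows with shares of 40.2% to 49.8% are above 0 in all panels, and the lowest point of each panel is cow 8513.

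Of 8 cell type markers that could be paired with a locus, 3 were called at D3 vs. D-3 (KRT5, ACTA2 and KDR). At D7 vs. D3, 3 were called (KRT5, ACTA2 and MYLK). Of all tested loci, 6.03% were called higher and 9.04% lower at D3 vs. D-3, and 2.3% lower at D7 vs. D3. The symbols that could be paired lean towards loci that changed in these comparisons. The counts of called markers thus describe the paired markers and are not shares of the listed ones. Of the 4 markers listed for basal or myoepithelial cells, 3 could be paired with a locus (KRT5, ACTA2 and MYLK). Their summed level was 440 to 2035 CPM at D-3 with a median of 1022 CPM, 817 to 2922 CPM at D3 with a median of 2040 CPM, and 725 to 1350 CPM at D7 with a median of 1001 CPM. At D3 vs. D-3, KRT5 and ACTA2 were called higher, and all 3 were called lower at D7 vs. D3. The D-3 sample of cow 8513 had the highest level of all 4 receptors at that day. In it KRT5, ACTA2 and MYLK were also the highest of 12, at 527, 897 and 612 CPM, as was the epithelial KRT19 at 1181 CPM. The other paired markers were not: DCN (735 CPM), KDR (97.8 CPM), ADIPOQ (5.44 CPM) and AIF1 (20.2 CPM) lay within the range of the other 11. KDR, ADIPOQ and AIF1 were below the medians of these, at 147, 14.2 and 21.5 CPM. The endothelial gene KDR, 1 of 4 listed, fell at D3 (-0.95 on the log2 scale, FDR = 0.0023). AIF1, the only one of 9 myeloid markers that could be paired, was not called (log2 fold change 0.27, FDR = 0.389), with 9.54 to 33.1 CPM at D-3 and 15.2 to 40.5 CPM at D3. KRT19 of 6 epithelial, DCN of 6 fibroblast and ADIPOQ of 4 adipocyte markers were not called either, at log2 fold changes of 0.52, 0.12 and -0.84. None of these markers was at 0 in any sample, and 0 of 9 lymphoid markers could be paired. The part of cell composition in the change of the receptors was not tested.

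No receptor was called between HT and CL cows at any of the 5 days, and 0% of all tested loci were. A less stringent call, for which the unadjusted p could reach 0.005 if the log2 change was 0.5 or more in size, was met by 0 of 4 receptors as well. Of all tested loci 0.0544% met it in the D-3 samples, and 0.0204%, 0.319%, 0.0544% and 0.0408% did in the later samples, in order of day. The 20 unadjusted p from exact two-sided permutation tests were between 0.284 and 0.961, and the 20 edgeR p-values included none under 0.05. At D3, after 3 days of treatment, the IL27RA levels were 78.6 to 217 CPM in CL and 74.3 to 195 CPM in HT, with medians of 125 and 142 CPM. IL6R was 63.0 to 99.6 CPM in CL and 66.2 to 117 CPM in HT, with medians of 89.1 and 79.6 CPM. IL10RB was 21.5 to 49.8 CPM in CL and 21.97 to 39.2 CPM in HT, with medians of 26.1 and 29.8 CPM. IL1R1 was 85.6 to 301 CPM in CL and 117 to 356 CPM in HT, with medians of 185 and 197 CPM. The groups overlapped for all 4 receptors, at D3 as at every other day.

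The intervals show what 6 cows per group could resolve. At D3 the HT minus CL log2 difference was -0.01 (95% confidence interval -0.60 to 0.58) for IL27RA, -0.04 (-0.37 to 0.30) for IL6R, -0.0018 (-0.48 to 0.47) for IL10RB and 0.08 (-0.59 to 0.75) for IL1R1. At D25 it was -0.07 (-0.42 to 0.28), -0.11 (-0.41 to 0.18), 0.14 (-0.17 to 0.46) and 0.17 (-0.32 to 0.65) in the same order. After dry-off the intervals reached as low as 0.658-fold (IL27RA at D3) and as high as 1.81-fold (IL1R1 at D7), and the narrowest was that of IL6R at D25, from 0.754-fold to 1.13-fold. The largest difference was at D-3, before the treatments, where HT minus CL was 0.33 (-0.27 to 0.92) for IL27RA. Without cows 8513 and 8660 it was -0.05. IL1R1 was 0.08 to 0.25 higher in HT at the 5 days, D-3 included, with no p under 0.05, and the D-3 difference was -0.02 without the D-3 sample of cow 8513. Without cow 8713 the D3 difference was -0.14.

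A difference of the time course between the treatments was not detectable. The interaction of treatment and day had an unadjusted p of 0.706 for IL27RA, 0.96 for IL6R, 0.861 for IL10RB and 0.996 for IL1R1, and an FDR of 1 for each, in an F-test on all 60 samples in which 0% of loci were called. From D-3 to D3, IL27RA changed by 0.96 on the log2 scale in CL and 0.64 in HT, IL6R by 0.62 in both, IL10RB by 0.70 and 0.47, and IL1R1 by 0.62 and 0.52. The difference of these changes, HT minus CL, was -0.32 (95% confidence interval -0.98 to 0.34) for IL27RA and -0.00044 (-0.58 to 0.58) for IL6R, and did not pass for any receptor.

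**Figure D4:**
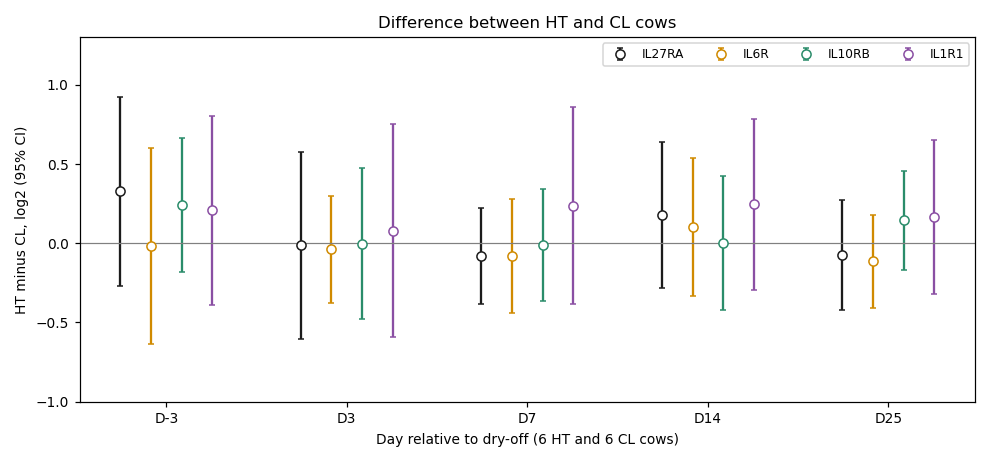
HT minus CL log2 difference of each receptor (vertical axis) with its 95% confidence interval at the 5 days on the horizontal axis, from 6 HT and 6 CL cows at each day. Every interval includes 0.

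Other genes of the same pathways were taken from lists of receptor chains, ligands, signalling proteins, feedback inhibitors and target genes. Symbols were held for 3033 loci only, from gene tables ordered by significance for D3 against D-3 and for D7 against D3, so that the 46 of 186 listed symbols that could be paired lean towards loci that changed. The counts below describe the paired genes and are not shares of their families.

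Of 48 further receptor chains, 11 could be paired, on 10 loci. At D3 vs. D-3, 5 loci were called higher and 3 lower (6.03% and 9.04% of all tested loci were), with a median log2 fold change of 0.39 beside -0.01 over all tested loci, and no receptor locus was called at D7 vs. D3. IL13RA1, a chain of the interleukin 4 and 13 receptors, had medians of 30.1 CPM at D-3 and 53.5 CPM at D3, a log2 change of 0.84 with an SE of 0.19 and an FDR of 0.00124. IFNAR2 and IFNAR1, the chains of the type I interferon receptor whose genes flank IL10RB, were called higher too. IFNAR2 changed by 0.48 (FDR = 0.00528), with medians of 24.5 and 35.1 CPM, and IFNAR1 by 0.65 (FDR = 0.00738), with medians of 80.4 and 126 CPM. CNTFR, the ciliary neurotrophic factor receptor, which also works through gp130, fell by 1.44 on the log2 scale (FDR = 0.00093), with medians of 19.99 and 12.1 CPM. Its samples were at 7.16 to 96.4 CPM at D-3 and 7.61 to 27.3 CPM at D3. CSF2RB, the shared beta chain of the interleukin 3 and 5 receptors, fell by 2.25 (FDR = 0.0028), with medians of 1032 and 420.2 CPM.

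Among 29 ligands and antagonists, 2 could be paired, and both belong to the interleukin 6 family that signals through gp130. LIF, the leukemia inhibitory factor, had a median of 1.22 CPM at D-3, 4.65 CPM at D3 and 2.30 CPM at D7. Its D-3 samples, at 0.358 to 14.7 CPM, were in part below the 1 CPM of the filter. Its log2 change was 1.95 at D3 (SE 0.51, FDR = 0.0061) and -1.78 from D3 to D7 (FDR = 0.0385). CTF1, cardiotrophin 1, changed by 0.61 (FDR = 0.00569) and -0.65 (FDR = 0.0151) at the same steps. The partner chains and ligands of the 4 receptors themselves, IL6ST, IL10RA, IL1RAP, IL6, IL10, IL27, EBI3, IL1A and IL1B among them, could not be paired and were not analysed here.

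Of 27 signalling genes, 11 could be paired, with a median log2 fold change of 0.29 at D3 vs. D-3. Of these, 6 were called higher at D3, 2 lower and 3 not called (6.03% and 9.04% of all tested loci were called higher and lower). STAT3, which is activated by gp130 and by the interleukin 10 receptor, rose by 0.45 on the log2 scale (SE 0.13), at an FDR of 0.0161, with medians of 226 and 337 CPM. ADAM17, the protease that sheds IL6R, rose by 0.57 (SE 0.12) at an FDR of 0.000835, with medians of 32.4 and 46.4 CPM. MYD88, the adaptor of IL1R1, had medians of 85.4 and 85.7 CPM, and its log2 change of 0.01 (SE 0.14) had an FDR of 0.989. IRAK1, a kinase downstream of MYD88, fell by 0.52 on the log2 scale (FDR = 0.00337). None of the 11 was called at D7 vs. D3.

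Of 13 negative feedback genes, 4 could be paired, of which 0 were called higher at D3 and 2 lower (6.03% and 9.04% of all tested loci were). SOCS6 fell by 0.66 (FDR = 0.00223) and CISH by 0.82 (FDR = 0.0136) on the log2 scale, and SOCS1 and SOCS7 were not called. SOCS3 could not be paired and was not analysed here. Of 17 target genes, 3 could be paired, and all 3 were called higher at D3, against 6.03% of all tested loci. JUNB, an early response transcription factor gene, rose by 1.35 (FDR = 0.00391), from a median of 43.1 CPM to 125 CPM. MCL1, a survival gene, rose by 0.63 (FDR = 0.00926), and LBP, an acute phase protein, by 1.74 (FDR = 0.0143). No gene of these lists was called for HT vs. CL at any day.

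The loci with a symbol whose log2 CPM followed each receptor most closely over the 60 samples were found among 3007 tested loci with a symbol. For IL27RA they were GNG5, EFNA1/SLC50A1, SHROOM1, KHNYN and MYH14, at Pearson's r of 0.88 to 0.86, and for IL6R PTK2B at 0.82 and SCARA3, TBC1D9, RASSF5 and CLU at 0.78 to 0.75. For IL10RB they were LOC788801, P2RX4, HEXA, S100A11 and GLUL, at 0.87 to 0.85. For IL1R1 the closest was OSMR, the oncostatin M receptor that pairs with gp130, at 0.90, and then SCNN1G, C3 and RASL11B at 0.88 to 0.86. Within treatment and day, where the mean of each group was taken away, the r of OSMR with IL1R1 was 0.91 and that of GNG5 with IL27RA 0.84. Between the receptors themselves, r ran from 0.31 for IL6R with IL1R1 to 0.63 for IL10RB with IL1R1. The loci named above were picked for the largest r among 3007, so that the choice itself favours higher values for them than between receptors. These values are descriptions. The 60 samples share 12 cows, the points share library and tissue composition, and the named loci come from a table that leans towards loci that changed.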

How the data were processed

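RNA of mammary biopsies from 12 cows at 5 days gave 60 single-ended libraries, made with a kit that does not mark the strand. Per the submitters' notes and the study's methods, the authors used Trim Galore 0.4.1 for trimming, TopHat2 2.0.13 for mapping, Cufflinks 2.2.1 for transcripts merged with Ensembl models, and htseq-count on reads with a unique alignment. How strand was treated in counting is not given in the sources used here. The study's methods name the bosTau7 build and the submitters' processing notes name UMD3.1, so no coordinates are given. The authors deposited whole-number counts per locus without normalization, as 26073 entries for 25223 loci, and each locus entered once. Each of the 4 receptor loci holds 1 Ensembl gene.

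Counts were scaled by TMM and tested with the quasi-likelihood F-test of edgeR 4.0.16 (R 4.3.3), with trended dispersions, over loci that reached 1 CPM in 6 or more samples. Days were compared in 1 model of the 60 samples with a term per day, and HT with CL in a fit of the 12 samples of each day. A locus was called at a Benjamini-Hochberg FDR up to 0.05. Per receptor, log2 CPM (prior count 2) was tested by exact two-sided sign-flip tests over the 4096 sign sets of 12 within-cow differences, with a smallest p of 0.000488, and by exact two-sided permutation tests over 924 label sets, with a smallest p of 0.0022. These 40 and 20 p-values were not adjusted. Samples of a cow are paired by the labels. Their deviations from group means correlated at 0.293 on average across days, against -0.0573 for other cows of the treatment.

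The receptors and gene lists were chosen with earlier results of these data known. Symbols came from gene tables held here only in part, which pair 3033 loci. Apart from the receptors, the genes named are their direct partners and ligands where paired, at most 3 genes per list with the smallest FDR at D3 vs. D-3, cell type markers, and the 5 loci most alike to each receptor, of which 1 for IL1R1 is not reported here. Neighbours of IL10RB came from the RefSeq annotation of ARS-UCD2.0.

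The scripts were tested on simulated data with known changes. Alternatives were RLE factors, library size only, TMM without milk protein genes, tagwise dispersions, DESeq2 1.42.0, other filters, treatment as a covariate, the cow as a replicate block, fits of fewer or more samples, other prior counts and each cow left out in turn. Fits and within-cow tests without cows 8513 and 8660 or without the D-3 sample of cow 8513, and within-cow tests without the D14 sample of cow 7965, were chosen after seeing the data. Python 3.11.15, numpy 2.4.6, pandas 2.3.3, scipy 1.17.1 and matplotlib 3.10.9 were used outside R. No sequences of the receptors were used here.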

Additional observations from a re-analysis of the deposited data

Results flagged for a closer look

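In the CL cows at D25, the IL1R1 level of cow 8564 stood apart from the other 5. It was 179 CPM, and the next highest sample was at 95.9 CPM. In log2 CPM this gap made up 0.672 of the range of the group, above Dixon's 95% critical value for 6 samples. Of the 40 groups of 6 samples tested in this way, for 4 receptors at 5 days in 2 treatments, this was 1, and chance alone gives about 1 in 20. The cause was not tested.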

How the results depend on the processing

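All 4 receptors were called higher at D3 vs. D-3 under every alternative except without a filter beyond 1 count and with only the samples of the compared days, where 3 were, and 3 to 4 were called with single cows left out. At D7 vs. D3, where 1 was called, 0 were called with library size only or without cows 8513 and 8660, and 2 with tagwise dispersions, with DESeq2 or without the D14 sample of cow 7965. With the cow as a replicate block, which uses the pairing by cow, 2 were called, and 3 with cows 8513 and 8660 exchanged at D14 and D25. The block changed no other call of a receptor. With single cows left out the count was 0 to 2. At D7 vs. D-3, where 0 were called, 1 was without cows 8513 and 8660 or without the D-3 sample of cow 8513, and 0 to 1 with single cows left out. At D14 vs. D-3 it was 0 in place of 2 with only the samples of both days, 1 without the D14 sample of cow 7965, and 0 to 2 with single cows left out. At D25 vs. D-3 it was 2 in place of 1 with library size only, under which 39.8% of all tested loci were called higher in place of 3.96%, 0 with only the samples of both days, and 0 to 1 with single cows left out. For any difference over the 5 days it was 2 to 4. At each day 0 receptors were called between HT and CL under every alternative. The causes were not tested.

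Scaling by library size only raised the median of all loci against D-3, by 0.35, 0.41, 0.43 and 0.48 at the later days in order, and the loci called higher outnumbered those called lower at D3 (2216 and 175), D14 (4436 and 167) and D25 (5853 and 185), where the lower outnumbered the higher with TMM (887 and 1330, 1211 and 1658, 582 and 1348). At D7 vs. D3 the calls were 12 and 24 in place of 92 and 338, and at D7 vs. D-3 they were 5 and 18 in place of 197 and 1048. It turned the sign of IL1R1 at D25 vs. D-3 to 0.26 (within cows 0.39), of IL27RA at D25 vs. D14 within cows to 0.044 (that of IL27RA at D14 vs. D7 became 0.0011 without the D14 sample of cow 7965), and of HT minus CL for IL6R at D-3 to 0.029. HT minus CL for IL10RB at D3 became 0.014 with library size only, 0.0026 with a minimum of 5 CPM, 0.0011 with all 60 samples and 0.057 without cows 8513 and 8660. At D-3, that of IL27RA became -0.046 without these cows and that of IL1R1 -0.019 without the D-3 sample of cow 8513. With single cows left out, HT minus CL changed sign at D3 for IL27RA (-0.14 to 0.14), IL6R (-0.15 to 0.019), IL10RB (-0.082 to 0.16) and IL1R1 (-0.14 to 0.25), at D-3 for IL1R1 (-0.019 to 0.31) and at D25 for IL27RA (-0.15 to 0.024), and IL1R1 at D14 vs. D7 ran from -0.18 to 0.022.

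The number of loci called moved more than that of the receptors. With only the samples of both days it was 845 in place of 2217 at D3 vs. D-3, 0 in place of 1245 at D7 vs. D-3, 908 in place of 2869 at D14 vs. D-3 and 945 in place of 1930 at D25 vs. D-3. With library size only it was 36 in place of 430 at D7 vs. D3, 23 at D7 vs. D-3, 4603 at D14 vs. D-3 and 6038 at D25 vs. D-3. With the block it was 881, 1950 and 3003 at D7 vs. D3, D7 vs. D-3 and D25 vs. D-3, and with the exchange 1022, 2174 and 3228, and 3331 at D3 vs. D-3. At D7 vs. D3 it was 648 with tagwise dispersions and 709 with DESeq2, at D7 vs. D-3 2539 without cows 8513 and 8660, at D14 vs. D7 10 with tagwise dispersions in place of 0, and at D25 vs. D14 0 to 30 in place of 9. With single cows left out it was 1230 to 2557, 49 to 609, 305 to 1908, 1531 to 3617 and 869 to 2154 at D3 vs. D-3, D7 vs. D3, D7 vs. D-3, D14 vs. D-3 and D25 vs. D-3.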
